A study of Mus musculus with 10 samples.

Results

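Lhcgr, Insl3, Gramd1b, Ren1 and Sult1e1 were grouped as genes of fetal Leydig cell identity and hormone function, a label that was not tested. They were taken by symbol from the deposited count table, which holds 24470 gene entries, and each of the 5 was found there. Of these, 3 (Lhcgr, Gramd1b and Ren1) had enough counts to be tested among 13941 genes, and Insl3 and Sult1e1 did not. Sult1e1 had 0 raw counts in every vehicle library, so these vehicle testes do not bear out the label for it.

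The samples were testes of C57BL/6 mouse embryos taken at E12.5 with the mesonephros attached. From each of 5 embryos (M1 to M5), 1 gonad received 75 µM GPI (CP 316819), an inhibitor of glycogen phosphorylase, and its partner the vehicle DMSO, during 48 h of culture. The mesonephros was dissected off after culture, and RNA of each gonad with all its cell types gave 1 library. The 5 vehicle libraries held 11114376, 10203679, 10835341, 12220168 and 15590223 counts in M1 to M5, and the 5 GPI libraries 11025409, 15635322, 13639929, 11691690 and 11468668. The comparison asks how the RNA of each gene differed when breakdown of glycogen was inhibited.

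Fetal Leydig cells lie in the interstitium of the testis, between the cords formed by Sertoli cells around germ cells, and make androgen precursors from cholesterol. Lhcgr encodes the receptor for luteinizing hormone, which signals through cyclic AMP, and Insl3 a peptide hormone that acts through the receptor Rxfp2 in descent of the testis. Gramd1b encodes a protein of the endoplasmic reticulum that moves cholesterol from the plasma membrane, Ren1 the protease renin, which cleaves angiotensinogen, and Sult1e1 a sulfotransferase that inactivates estrogens.

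RefSeq promoter windows (GRCm38.p6) were matched for 4 of the 5 genes, Lhcgr, Insl3, Ren1 and Sult1e1, and no entry was matched for Gramd1b. The 250 bases before the annotated start are shown for Lhcgr, the gene with the largest difference among those tested here, and for Sult1e1, the gene with the fewest counts, since no annotated exon of GENCODE M21 lies in either window. The Lhcgr window is chr17:88792015-88792264 on the minus strand, and it starts 38 bases beyond the end of the gene's span in the count table. The Sult1e1 window is chr5:87591612-87591861 on the minus strand. Both are upstream of the gene and are written 5′ to 3′ on its strand, with matches to the searched motifs in capitals.
Lhcgr: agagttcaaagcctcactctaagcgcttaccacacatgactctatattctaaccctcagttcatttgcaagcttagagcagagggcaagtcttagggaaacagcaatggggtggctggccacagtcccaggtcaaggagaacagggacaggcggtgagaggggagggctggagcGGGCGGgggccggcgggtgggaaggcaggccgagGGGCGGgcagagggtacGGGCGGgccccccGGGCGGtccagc
Sult1e1: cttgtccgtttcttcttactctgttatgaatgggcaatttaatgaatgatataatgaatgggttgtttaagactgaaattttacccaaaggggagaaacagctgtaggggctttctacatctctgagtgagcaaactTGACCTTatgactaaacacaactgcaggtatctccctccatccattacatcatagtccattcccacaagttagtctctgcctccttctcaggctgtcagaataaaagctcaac

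The motifs were chosen after the windows had been read and were searched on both strands. They were the GC box (GGGCGG), the TATA box (TATAAA), the letters bound by GATA factors (NGATAA), the cyclic AMP response element (TGACGTCA) and a pair of spellings of the letters bound by NR5A1, either CAAGGNC or its neighbour AAGGTCA, which can overlap in a sequence. The Lhcgr window held 4 matches to GGGCGG, beginning 76, 42, 25 and 12 bases before the start, and none to the others. Of 32851 RefSeq windows of this length, 32.7% held GGGCGG. The Sult1e1 window held AAGGTCA on the opposite strand 113 bases before the start, letters found in 4.08% of windows. The Ren1 window, not printed because 164 of its bases are annotated as exon, held CAAGGNC on the opposite strand 115 bases before the start and TATAAA 29 bases before it, found in 15% and 12.4% of windows. The Insl3 window, with 38 annotated exon bases, held CAAGGNC beginning 137 and 57 bases before the start and GGGCGG 47 bases before it. Matches to NGATAA (22.5% of windows) and TGACGTCA (1.55%) were in none of the 4 windows. GC content was 63.2% for Lhcgr, 59.2% for Insl3, 51.6% for Ren1 and 40.8% for Sult1e1, against a median of 52.4% over all windows. A match describes the letters in a window and not a bound site.

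Lhcgr, Gramd1b and Ren1 were each higher with GPI in 5 of 5 mice, and their GPI and vehicle values did not overlap. Each had at least 20 counts in every library, so none passed the low-count filter through GPI libraries alone. All 3 passed the threshold for an increase, as did 11.1% of tested genes, and 0 of the 3 passed for a decrease, as did 11.9%. Among tested genes, 15.4% were higher in 5 of 5 mice, 7.07% had every GPI library above every vehicle library, and 9.05% had every GPI library below. The 5 genes were chosen with earlier results of these data known, so these counts describe them and do not test the set.

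Lhcgr (Entrez Gene 16867, mm10 chr17:88741549-88791976, minus strand) had 24.4 normalized counts with vehicle in M1, 134 in M2, 153 in M3, 50.8 in M4 and 282 in M5. With GPI it had 460 in M1, 545 in M2, 806 in M3, 823 in M4 and 815 in M5. Normalized counts are counts scaled to a common library size by TMM, a method that corrects for differences in composition. Vehicle gonads M1 and M4 were the lowest and vehicle gonad M5 the highest of their group, and every GPI gonad was above every vehicle gonad, by 1.63 times at the closest. The vehicle mean was 129 ± 101 (SD, n = 5) and the GPI mean 690 ± 174 (SD, n = 5). The log2 fold change was 2.65 ± 0.31 (standard error), with an adjusted p = 2.72e-05 in edgeR's quasi-likelihood test, adjusted by Benjamini-Hochberg across the 13941 genes. In whole gonads, more Leydig cells and more RNA per cell cannot be told apart.

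Gramd1b (Entrez Gene 235283, chr9:40297907-40455764, minus strand) had 154 normalized counts with vehicle in M1, 229 in M2, 245 in M3, 181 in M4 and 376 in M5. With GPI it had 478 in M1, 402 in M2, 549 in M3, 567 in M4 and 519 in M5. Vehicle gonad M5 came closest to the GPI group, whose lowest gonad, M2, was 1.07 times as high. The vehicle mean was 237 ± 85.9 (SD, n = 5) and the GPI mean 503 ± 65.7 (SD, n = 5), and the log2 fold change was 1.13 ± 0.16 (standard error), with an adjusted p = 0.000172 by edgeR. Reads were counted without regard to strand, and the span of Gramd1b overlaps 1700110K17Rik on the opposite strand, with 114 of its 10075 exon bases shared in GENCODE M21. 1700110K17Rik had 2 to 32 raw counts in vehicle libraries and 35 to 86 in GPI libraries, against 139 to 494 and 427 to 577 for Gramd1b.

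Ren1 (Entrez Gene 19701, chr1:133350674-133360320, plus strand) had 22.1 normalized counts with vehicle in M1, 69.2 in M2, 65.9 in M3, 57.8 in M4 and 73.9 in M5. With GPI it had 152 in M1, 94.9 in M2, 111 in M3, 150 in M4 and 95.9 in M5. Vehicle gonad M1 was the lowest of its group and its GPI partner the highest of the other, and the groups did not overlap. The vehicle mean was 57.8 ± 20.8 (SD, n = 5) and the GPI mean 121 ± 28.5 (SD, n = 5), and the log2 fold change was 1.08 ± 0.29 (standard error), with an adjusted p = 0.0153 by edgeR. Ren1 missed the threshold when mouse M4 was left out (log2 fold change 1.0, adjusted p = 0.0661 by edgeR), and its adjusted p over the alternatives ran from 0.00106 to 0.0661. The related gene Ren2 had 0 entries in the table.

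Insl3 (Entrez Gene 16336, chr8:71689252-71690577, plus strand) had 0 raw counts with vehicle in M1, 2 in M2, 2 in M3, 0 in M4 and 2 in M5. With GPI it had 0 in M1, 0 in M2, 5 in M3, 7 in M4 and 2 in M5. The groups overlapped, and by raw counts 2 mice were higher and 1 lower with GPI, and 2 were equal. The sums were 6 and 14 counts. An exact two-sided sign-flip permutation test over the 5 mice, made on log2 ratios of TMM-scaled counts in which M1 alone was at 0, gave p = 0.625. The smallest p it could give was 0.125, so the test could not pass a threshold of 0.05. The gene's span of 1326 bases lies wholly within that of Jak3, on the same strand, and both end at the same base. Of 623 Insl3 exon bases in GENCODE M21, 404 (64.8%) are also Jak3 exon, and by default featureCounts leaves out a read pair that fits more than 1 gene. The methods name no option that would keep such pairs, so Insl3 counts may leave out part of its RNA and are not a measure of its absence. The study counted on NCBI RefSeq Curated gene models, and the exon bases shared in those models were not measured. Jak3 had 13 to 28 raw counts with vehicle and 2 to 13 with GPI (log2 fold change -1.37, standard error 0.48, adjusted p = 0.0553 by edgeR).

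Sult1e1 (Entrez Gene 20860, chr5:87575968-87591611, minus strand) had 0 raw counts in each of the 5 vehicle libraries. With GPI it had 0 in M1, 0 in M2, 3 in M3, 1 in M4 and 1 in M5. Reads were seen in 3 of 5 GPI libraries, and no fold change is given because a count of 0 allows up to 3 counts in a library. The exact two-sided sign-flip permutation test gave p = 0.25, which is the smallest it could give with 0 counts in both gonads of M1 and M2, so it cannot show whether the groups differed. Without molecular identifiers, reads of amplified libraries are not independent molecules, and such limits cover counting error only.

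**Figure D1:**
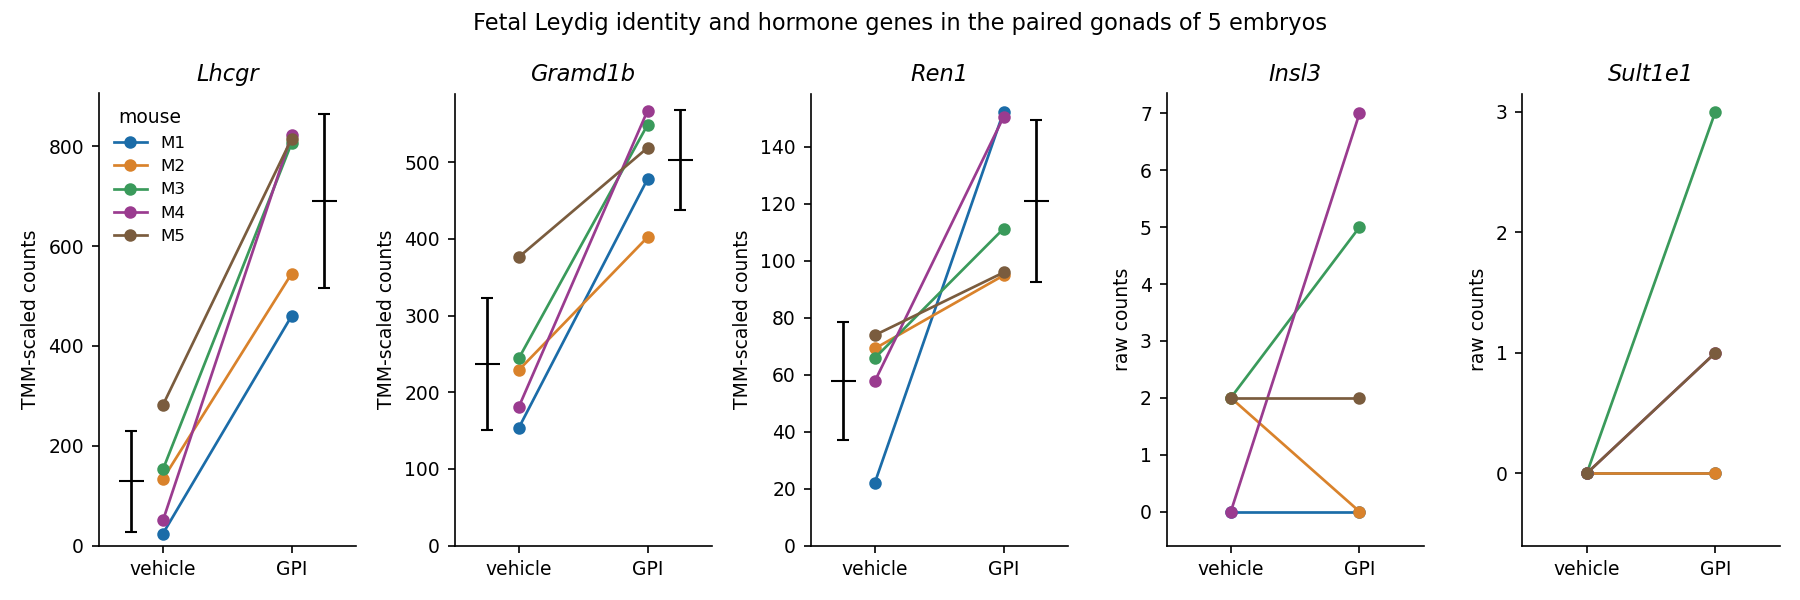
Each panel plots 1 gene, with vehicle at left and GPI at right and a line joining the gonads of a mouse. The vertical axis is TMM-scaled counts for Lhcgr, Gramd1b and Ren1 (black bars, mean ± SD, n = 5) and raw counts for Insl3 and Sult1e1, where equal values hide one another. Lines rise in 5 of 5 mice for the 3 tested genes, and Insl3 and Sult1e1 stay at 7 counts or fewer.

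Levels of different genes were compared as CPM (counts scaled by TMM library size) per kilobase of the longest GENCODE M21 transcript. With vehicle, Ren1 had 2.95 ± 1.06, Gramd1b 2.57 ± 0.93, Lhcgr 1.53 ± 1.2, Insl3 0.16 ± 0.15 and Sult1e1 0 (SD, n = 5). With GPI, Lhcgr had 8.20 ± 2.07, Ren1 6.17 ± 1.45, Gramd1b 5.45 ± 0.71, Insl3 0.37 ± 0.42 and Sult1e1 0.065 ± 0.076. On this scale, with either treatment, the highest 3 differed from their neighbours by no more than the larger SD, as did Insl3 from Sult1e1 with GPI, and Sult1e1 lay below the highest 3 by more than the larger SD. Insl3 was not placed against the highest 3, since its counts may leave out pairs from the exon bases it shares with Jak3. With the median transcript length in place of the longest, the order with vehicle was Gramd1b (7.22 ± 2.62), Ren1 (5.19 ± 1.87) and Lhcgr (4.15 ± 3.27), again with differences between neighbours of no more than the larger SD. With GPI it was Lhcgr (22.3 ± 5.61), Gramd1b (15.3 ± 2.0) and Ren1 (10.9 ± 2.56), with differences above the larger SD, so the order of these 3 depends on the length used. On the longest-transcript scale the steroidogenic enzymes Cyp11a1 and Hsd3b1 were higher, with 21.4 ± 14.1 and 75.2 ± 39.0 with vehicle, and 138 ± 37.6 and 231 ± 56.3 with GPI. Cyp17a1 had 3.77 ± 2.78 with vehicle, which differed from Ren1, Gramd1b and Lhcgr by no more than its SD, and 54.4 ± 25.2 with GPI.

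In the ratio of highest to lowest, the vehicle gonads differed more among themselves than the GPI gonads in each tested gene, although the SD of normalized counts was larger with GPI for Lhcgr and Ren1. For Lhcgr, the highest vehicle gonad had 11.6 times the lowest, and the highest GPI gonad 1.79 times the lowest, with SDs of log2 values of 1.36 and 0.39. For Gramd1b the ratios of highest to lowest were 2.45 with vehicle and 1.41 with GPI, and for Ren1 3.34 and 1.60. Among steroidogenic genes, they were 5.39 and 1.77 for Cyp11a1, 4.47 and 1.85 for Hsd3b1 and 5.40 and 3.44 for Cyp17a1, whereas Star had 1.48 and 1.55. The differences in spread were not tested.

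Ranked from low to high, the vehicle gonads fell in the order M1, M4, M2, M3 and M5 for Lhcgr and Gramd1b, and also for Cyp11a1, Hsd3b1 and Cyp17a1. This order was noticed after the values were seen. With GPI, M4 was the highest for these 5 genes and M1 and M2 the lowest. The log2 ratios of GPI to vehicle in M1 to M5 were 4.13, 2.01, 2.38, 3.97 and 1.53 for Lhcgr (pseudocount of 2). They were 1.62, 0.81, 1.16, 1.63 and 0.46 for Gramd1b. They were 2.68, 0.44, 0.74, 1.35 and 0.37 for Ren1. M1 and M4 thus had the highest ratios and M5 the lowest for each tested gene, and the ratio itself contains the vehicle value.

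**Figure D2:**
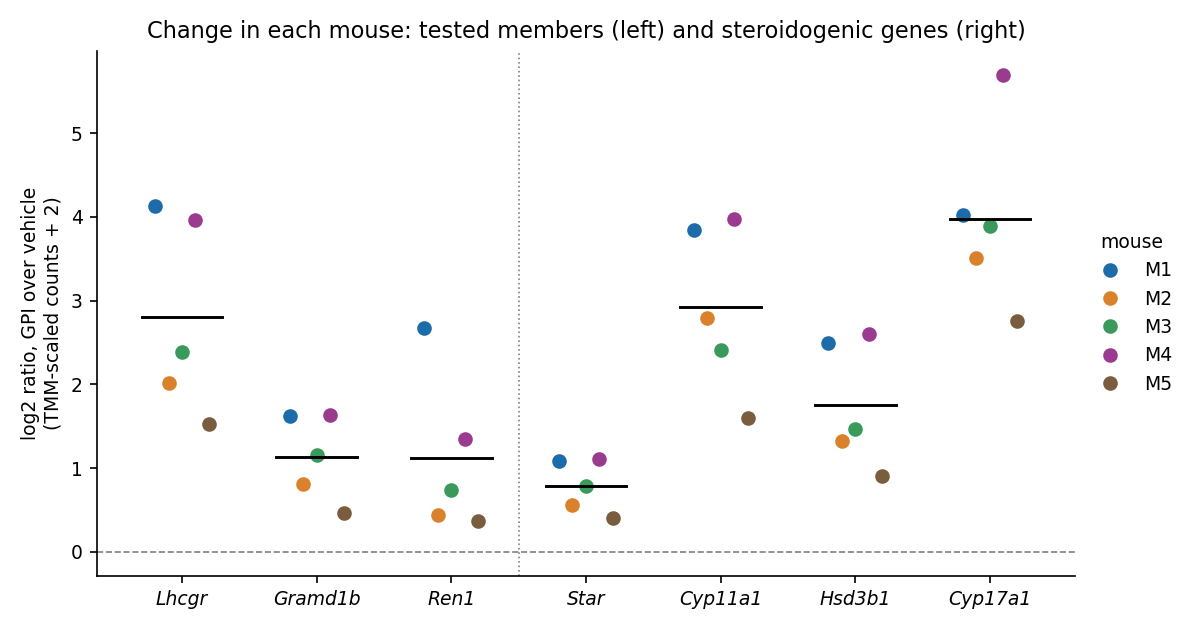
The log2 ratio of GPI to vehicle (TMM-scaled counts plus a pseudocount of 2) is plotted for each mouse, with a bar at the mean of 5 mice, for the tested members Lhcgr, Gramd1b and Ren1 and for Star, Cyp11a1, Hsd3b1 and Cyp17a1. Every point is above 0, from 0.37 for Ren1 in M5 to 5.70 for Cyp17a1 in M4, and for each gene M1 and M4 are the highest mice and M5 is the lowest.

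Genes whose pattern was most like that of each tested member were found by Pearson's r of log2 scaled counts over the 10 libraries, among 11102 tested genes whose mean count reached 50 per library, with the members themselves left out of the ranking. These values describe libraries that share treatment and mice, and no p is given. For Lhcgr the highest were Hsd3b1 (r = 0.994), E2f6 (0.980), Pak3 (0.980), Sybu (0.979) and Gm10471 (0.977). For Gramd1b they were Pak3 (0.980), Hsd3b1 (0.979), Cyp11a1 (0.978), Akr1cl (0.975) and Nckap5 (0.974). Lhcgr and Gramd1b had r = 0.980 with each other, and Ren1 had 0.894 with Lhcgr and 0.882 with Gramd1b. For Ren1 the highest were Osbpl9 (0.962), Abhd6 (0.951), Mrpl2 (0.946), Gm1979 (0.937) and Ero1b (0.936), none of which was among those listed for Lhcgr or Gramd1b.

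Each treatment's mean was then removed, so that only differences among gonads of the same treatment remained. For the members these were larger among vehicle gonads, which thus weigh more in r. The SDs of log2 values with vehicle and GPI were 1.36 and 0.39 for Lhcgr, 0.49 and 0.20 for Gramd1b and 0.68 and 0.33 for Ren1. With all mice, Hsd3b1 was again the closest to Lhcgr (r = 0.980). It was followed by Ppp1r3a (0.975), Pak3 (0.960), Ralgps2 (0.958) and Sybu (0.953). Without mouse M1, Ppp1r3a (0.959) lay above Hsd3b1 (0.955), so Hsd3b1 did not keep the first place. For Gramd1b the highest were Sybu (0.941), Gm10220 (0.935), Pak3 (0.933), Hsd3b1 (0.930) and Pag1 (0.926). Without M1, Pak3 (0.968) and Hsd3b1 (0.964) lay above Sybu (0.9265), then the lowest of these 5. For Ren1 the highest were Osbpl9 (0.957), Cttn (0.921), Dele1 (0.921), Eif3k (0.919) and Abhd6 (0.905). Without M1 these 5 values for Ren1 were between 0.593 and 0.883. Lhcgr and Gramd1b had r = 0.928 with each other, and Ren1 had 0.727 with Lhcgr (0.527 without M1) and 0.692 with Gramd1b.

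Other genes of the same pathways were read from lists, each given by its counts and its median to be read beside the median log2 fold change of 0.02 over all tested genes, of which 11.1% rose and 11.9% fell. Of 10 genes listed as fetal Leydig steroidogenic, 10 were tested and 10 rose, with a median of 1.52. Hsd3b6 (log2 fold change 1.66) was counted in this list, and whether its genes are particular to fetal rather than adult Leydig cells was not tested. Cyp17a1 (log2 fold change 3.9), which makes androgen precursors, Cyp11a1 (2.90), which cleaves the side chain of cholesterol, and Hsd3b1 (1.75) rose most among those named, with Fdxr (1.63) and Fdx1 (1.41), which pass electrons to Cyp11a1, and Star (0.79), which carries cholesterol into mitochondria. The log2 fold change of Lhcgr lay between those of Hsd3b1 and Cyp11a1, and those of Gramd1b and Ren1 between those of Star and Fdx1.

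Of 8 other fetal Leydig markers, 8 were tested, 4 rose and 0 fell, with a median of 0.66. Nr5a1, the nuclear receptor that drives steroidogenic genes, rose by 1.11 (standard error 0.12, adjusted p = 1.35e-05 by edgeR) and the prolactin receptor gene Prlr by 1.53 (standard error 0.12, adjusted p = 7.62e-07 by edgeR). Crhr1, the receptor for corticotropin-releasing hormone, rose by 3.75 (standard error 0.60, adjusted p = 0.000423 by edgeR) from 0 to 4 raw counts with vehicle to 10 to 31 with GPI. With at least 10 counts required in every library Crhr1 was not tested, and 3 genes of the list rose. The inhibin subunit gene Inha was the other that rose (0.95). Nr5a1 is not particular to Leydig cells, since the paper describes Nr5a1-Cre as expressed in progenitors of Sertoli cells. Sertoli markers also rose (6 of 8 tested), and which cells the rises of Nr5a1 and Inha came from was not tested. Thbs2 had a log2 fold change of -0.09 (adjusted p = 0.792 by edgeR) and Mc2r, the receptor for adrenocorticotropin, 0.36 (adjusted p = 0.441 by edgeR). With a mouse left out, the value of Mc2r ran from 0.15 to 0.58.

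Of 4 markers of adult Leydig cells, 3 were tested, 2 rose and 0 fell, with a median of 0.88. Hsd17b3, which makes testosterone and is active in fetal Sertoli cells, had a log2 fold change of 1.23, and Ptgds, a prostaglandin synthase, 0.88. Sertoli markers rose as well (6 of 8 tested), and which cells the Hsd17b3 and Ptgds reads came from was not tested. Vcam1 was at 0.60 (adjusted p = 0.0534 by edgeR) and passed the threshold with DESeq2 (adjusted p = 0.0339), without the low-count filter and without mouse M3, in a range of 0.012 to 0.21 over the alternatives. Hsd11b1 was not tested, with 0 to 11 raw counts in vehicle libraries and 0 in each GPI library.

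Among 11 genes of Leydig progenitors and their regulators, 11 were tested, 3 rose and 3 fell, with a median of -0.11. Gata4 (log2 fold change 0.53), Maf (0.49) and Pdgfra (0.33) rose. Hes1, a target of Notch signalling, fell by 0.99 on the log2 scale (standard error 0.10, adjusted p = 1.21e-05 by edgeR), and Gli1 (-0.42) and Tcf21 (-0.30) fell as well. Tcf21 missed the threshold without mouse M2, M3 or M4 (adjusted p = 0.0586, 0.0942 and 0.0743 by edgeR), in a range of 0.00739 to 0.0942 over the alternatives. Gli1 missed it without the replicate block (adjusted p = 0.0702 by edgeR) and without mouse M3 or M4 (adjusted p = 0.0739 and 0.0611 by edgeR), in a range of 0.00915 to 0.0739. Nr2f2, expressed in interstitial progenitors, had -0.18 (adjusted p = 0.104 by edgeR) and passed the threshold with total counts alone (adjusted p = 0.0441 by edgeR), in a range of 0.0441 to 0.293 over the alternatives. The number that fell was thus 1, Hes1, when mouse M3 or mouse M4 was left out.

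Of 20 genes listed for LH receptor signalling, 17 were tested, 2 rose and 1 fell, with a median of -0.02. Among all tested genes, 11.1% rose and 11.9% fell. The list also holds Fshr, the gene of another receptor. Prkar2b, a regulatory subunit of protein kinase A, rose by 1.54 (standard error 0.13, adjusted p = 1.52e-06 by edgeR), and Adcy9, an adenylyl cyclase, by 0.80. Arrb1, an arrestin that uncouples receptors, fell by 1.22 (standard error 0.15, adjusted p = 5.08e-05 by edgeR). Gnas (log2 fold change -0.001), which encodes the stimulatory G protein, Prkaca (-0.15), the catalytic subunit of protein kinase A, and Creb1 (0.03) did not pass the test. The 3 genes not tested were Cga, with 0 raw counts in vehicle libraries and 0 to 6 with GPI, Lhb, with 0 to 3 and 0 to 2, and Fshr, with 1 to 9 and 3 to 9. Cga and Lhb encode the subunits of luteinizing hormone.

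In the relaxin family, to which Insl3 belongs, 1 of 8 listed genes was tested and 0 were called by edgeR. This was Rxfp2, the receptor of INSL3, with 7 to 87 raw counts over the GPI libraries and 9 to 76 over the vehicle libraries (log2 fold change 0.92, standard error 0.48, adjusted p = 0.203 by edgeR). At an unadjusted p under 0.05 there were 0 as well, and DESeq2 and limma-voom called 0. Without mouse M1 Rxfp2 passed the threshold (log2 fold change 1.29, adjusted p = 0.0476 by edgeR, in a range of 0.0476 to 0.63 over the alternatives). Without mouse M3 its log2 fold change was 0.41. Rxfp1 had 0 or 1 raw count in vehicle libraries and 0 with GPI, and Rln1 had 0 with vehicle and 0 to 7 with GPI.

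Of 12 tested genes of the GRAMD1 family and cholesterol transport, 2 rose and 0 fell, with a median of -0.01, where 11.1% of all tested genes rose and 11.9% fell. The family members Gramd1a and Gramd1c each had a log2 fold change of -0.06 (adjusted p = 0.825 and 0.891 by edgeR), and Stard3 -0.07. The 2 that rose were Abca1 (0.47), which exports cholesterol, and Npc2 (0.44), which binds it in lysosomes, and Npc1, its partner, had 0.19 (adjusted p = 0.123 by edgeR). Whether Gramd1b differed from its family members in response was not tested.

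In the renin-angiotensin list 9 of 11 genes were tested, 2 rose and 2 fell, with a median of 0.08. Agt, which encodes the substrate of renin, rose by 2.69 (standard error 0.45, adjusted p = 0.000578 by edgeR), from 3 to 11 raw counts in vehicle libraries to 31 to 63 in GPI libraries. The prorenin receptor gene Atp6ap2 rose by 0.52. The peptidase genes Ace and Anpep, whose products act on angiotensins, fell, with log2 fold changes of -1.74 and -1.31. Ace missed the threshold without mouse M4 (adjusted p = 0.0622 by edgeR) or mouse M5 (adjusted p = 0.0924 by edgeR), and its range over the alternatives was 0.0113 to 0.0924. The receptor gene Agtr2 had -0.30 (adjusted p = 0.698 by edgeR), and Agtr1a and Agtr1b were not tested. With at least 10 counts required in every library, Agt and Ace were not tested, and 1 gene rose and 1 fell.

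Of 13 genes of sulfation, 12 were found (Sts was not matched), 6 were tested and 0 were called by edgeR, with a median of 0.02. Papss1 and Papss2, which make the sulfate donor, had log2 fold changes of 0.14 and -0.07, Bpnt1 0.23 and Sult1a1 -0.43 (the smallest of the 6 adjusted p was 0.211 by edgeR). With a mouse left out, values ran from 0.08 to 0.15 for Papss1, 0.12 to 0.30 for Bpnt1 and -0.77 to -0.22 for Sult1a1. At an unadjusted p under 0.05 there were also 0, and DESeq2 and limma-voom called 0. The other 6 sulfotransferase genes of the list were below the filter, and Sult1c1 and Sult1c2 had 0 counts in all libraries.

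Of 7 genes of estrogen synthesis and reception, 6 were tested, 3 rose and 1 fell, with a median of 0.43. Hsd17b1 (log2 fold change 2.0) and Hsd17b7 (0.86), which can reduce estrone to estradiol, and the receptor gene Esr1 (0.62) rose, and the receptor gene Esr2 (-0.72) fell. Esr2 missed the threshold without mouse M2, M3 or M5 (adjusted p = 0.0819, 0.0573 and 0.0674 by edgeR), in a range of 0.0155 to 0.0819 over the alternatives. With at least 10 counts required in every library Hsd17b1 was not tested, and 2 genes rose. Cyp19a1, the aromatase gene, was not tested, with 0 or 1 raw count in vehicle libraries and 0 to 5 with GPI.

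**Figure D3:**
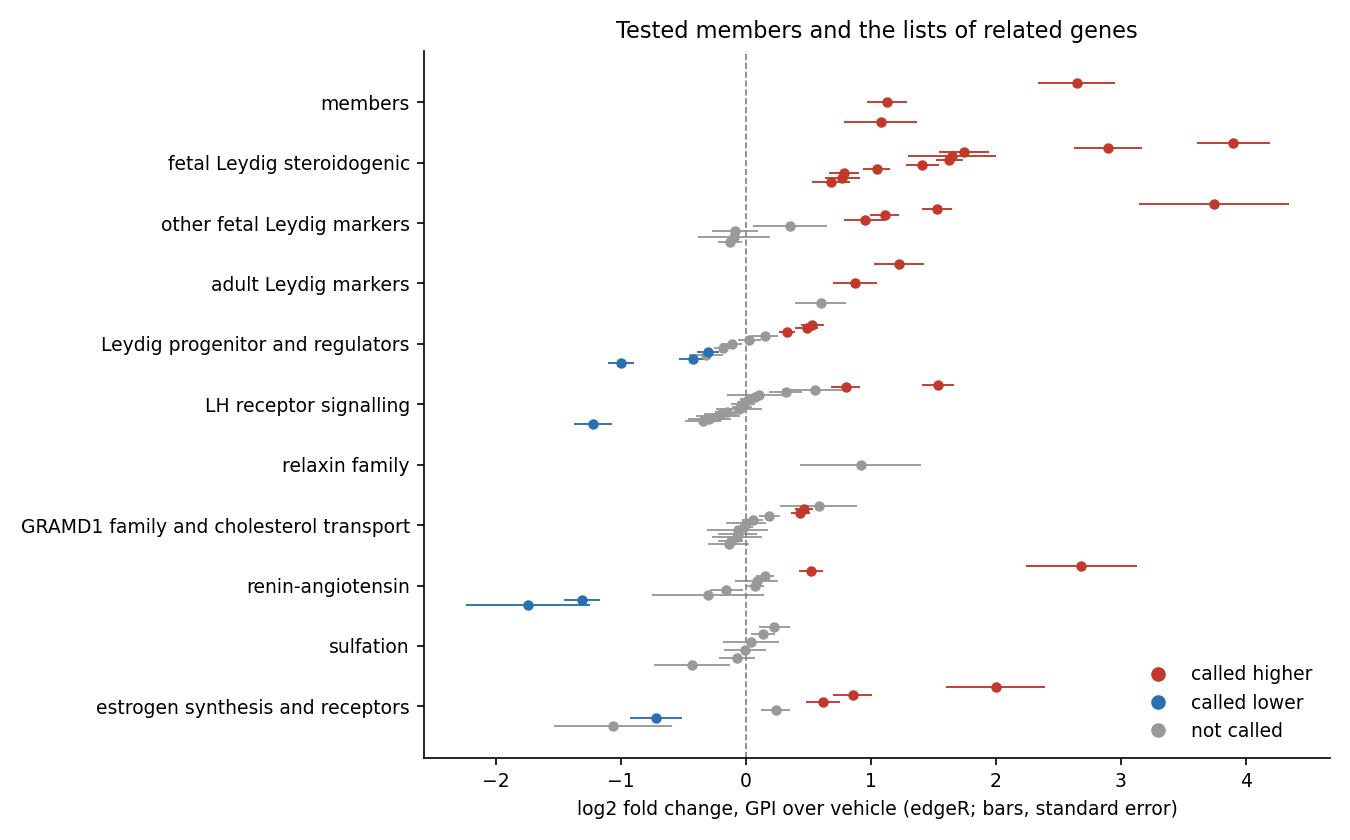
Log2 fold changes (horizontal axis, GPI over vehicle, with standard errors as bars) are plotted for the 3 tested members and for every tested gene of the 10 lists (vertical axis). The members lie between 1.08 and 2.65, within the range of the steroidogenic list, while genes of the LH receptor signalling, cholesterol transport and sulfation lists lie on both sides of 0. Genes of the other fetal Leydig marker, progenitor, renin-angiotensin and estrogen lists do so as well.

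The tissue was checked against markers of its cell types, summed as normalized counts in each library. The fetal Leydig markers were Lhcgr, Insl3 and, from the steroidogenic list, Star, Cyp11a1, Cyp17a1 and Hsd3b1. They repeat genes already reported above and are not a separate check. With vehicle they summed to 1304, 2834, 4133, 2042 and 5585 in M1 to M5, and with GPI to 10094, 10664, 16556, 18911 and 13743. Of 6 genes 5 were tested and 5 rose, and the most abundant was Hsd3b1 with vehicle and Cyp11a1 with GPI. The groups did not overlap, and vehicle gonads M1 and M4 were again the lowest.

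Sertoli markers summed to 4097, 5594, 4422, 5548 and 6338 with vehicle and 5800, 9523, 9943, 12212 and 9505 with GPI. Of 8 tested, 6 rose and 0 fell, and the most abundant was Aard with vehicle and Cyp26b1 with GPI. Aard missed the threshold without the replicate block (adjusted p = 0.0929 by edgeR) and without mouse M3 (adjusted p = 0.0502 by edgeR). Amh (log2 fold change 0.08) and Cst9 (-0.19) did not pass the test, and Dmrt1 lost its call without the replicate block (adjusted p = 0.0976 by edgeR), with total counts alone and without mouse M2, M3, M4 or M5, in a range of 0.00397 to 0.186 over the alternatives. GPI gonad M1 was the lowest of its group and overlapped the vehicle range.

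Endothelial markers summed to 6675, 6997, 6305, 7287 and 6490 with vehicle and 727, 867, 565, 469 and 615 with GPI, and 5 of 5 fell, with Cdh5 the most abundant with vehicle and Kdr with GPI. Germ cell markers summed to 959, 2024, 1212, 1673 and 629 with vehicle and 123, 101, 27.6, 33.7 and 97.0 with GPI. Of 6, 5 were tested and 5 fell, and the most abundant was Dazl with vehicle and Ddx4 with GPI. With at least 10 counts required in every library, Ddx4 was the only one tested, and it fell. Macrophage markers summed to 520, 325, 390, 372 and 322 with vehicle and 209, 196, 160, 134 and 111 with GPI, and 4 of 5 fell, with Mrc1 the most abundant. With that filter Cx3cr1 and C1qa were not tested, and 2 fell. The part of these losses in the relative rise of Lhcgr, Gramd1b and Ren1 was not tested.

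Renin is also made by mural cells of vessels and their precursors, and markers of mural and renin-lineage cells summed to 3847, 4697, 4940, 4457 and 4306 with vehicle and 2732, 2454, 2546, 2103 and 2375 with GPI. Of 6 tested, 3 fell and 0 rose. The most abundant was Pdgfrb with vehicle and Acta2, which did not pass the test, with GPI. Rgs5 fell by 4.32, Pdgfrb by 1.55 and Notch3 by 0.82 on the log2 scale. Akr1b7, which is expressed with renin, had a log2 fold change of 0.29 (adjusted p = 0.767 by edgeR), which was -0.046 without mouse M3 and -0.18 without mouse M4, and it was not tested with at least 10 counts required in every library. Which cells the Ren1 reads came from was not tested.

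Markers of the adrenal cortex, whose cells also express steroidogenic genes, summed to 58.7, 62.1, 77.0, 41.8 and 46.5 with vehicle and 70.5, 57.6, 156, 150 and 78.5 with GPI. The groups overlapped, 2 of 5 were tested, and 1 rose, Mrap (log2 fold change 1.64), which missed the threshold without mouse M4 or M5 (adjusted p = 0.0962 and 0.0744 by edgeR, in a range of 0.00287 to 0.0962 over the alternatives) and was not tested with at least 10 counts required in every library. Mc2r was the most abundant, Cyp11b2 and Cyp21a1 had 0 counts in every library, and Cyp11b1 had at most 4. Mesonephros epithelium markers summed to 1457, 1163, 1283, 1131 and 845 with vehicle and 782, 925, 594, 575 and 791 with GPI. Emx2, the most abundant and also expressed in the gonadal surface, fell by 0.73 on the log2 scale, Pax8 did not pass the test, and Pax2 and Lhx1 were not tested.

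**Figure D4:**
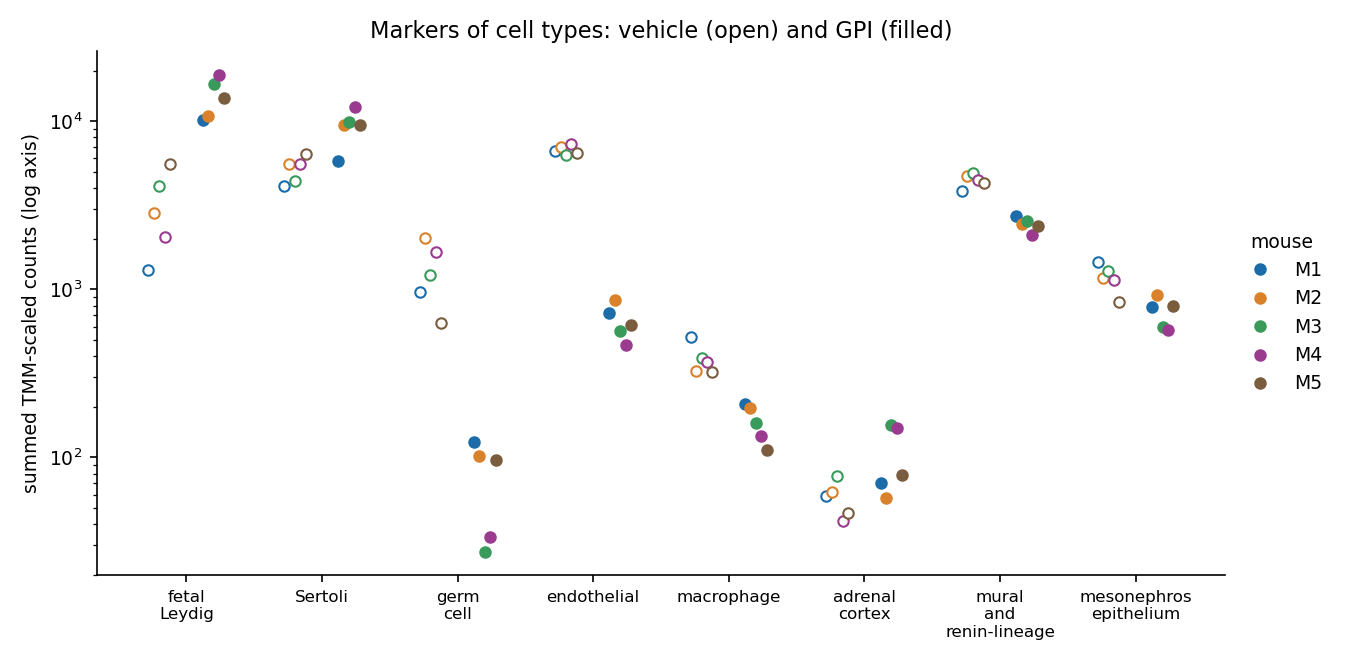
Summed TMM-scaled counts (vertical log axis) of the markers of 8 cell types are plotted for each mouse, with vehicle as open and GPI as filled circles. The fetal Leydig sums with GPI, 10094 to 18911, lie above all vehicle sums, while the endothelial, germ cell, macrophage and mural sums with GPI lie below all vehicle sums. The fetal Leydig markers are Lhcgr, Insl3 and genes of the steroidogenic list.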

How the data were processed

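RNA of 10 cultured testes, 5 with GPI and 5 with vehicle, was measured. Per the submitters' processing notes and the study's methods, the authors mapped reads to mm10 with STAR 2.5 and assigned them to genes with featureCounts of Subread 1.5.0-p1, and they deposited raw counts per gene without normalization. The counts were used as deposited, with 0 further columns of per-sample values in the table. Depth was between 10203679 and 15635322 counts per library, and errors are those between mice.

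filterByExpr (minimum count 10, minimum total 15) left 13941 of 24470 entries. Counts were scaled by TMM and tested with edgeR 4.0.16 (quasi-likelihood) in a design of mouse and treatment, with Benjamini-Hochberg adjustment and an FDR threshold of 0.05. The standard error is the absolute log2 fold change over the square root of F. Ratios in single mice used a pseudocount of 2. Insl3 and Sult1e1, below the filter, were given as raw counts with an exact sign-flip permutation test over mice. Pairing comes from the labels, which give the same animal to both gonads. Deviations from the treatment mean correlated within a mouse with a mean of 0.060 (from -0.040 to 0.155) and between mice with a mean of -0.015. No pair of libraries was a duplicate (chi-square per degree of freedom 6.42 to 27.8).

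The members and lists were chosen with earlier results of these data known. Some listed genes are not reported here and were left out of the counts. Named from each of the 10 pathway lists were its first 3 genes and the 3 tested genes with the smallest p, and other names, among them those of the marker lists, were added after their values were seen. The alternatives were DESeq2 1.42.0, limma-voom (limma 3.58.1), no replicate block, size factors by the median of ratios, total counts alone, no filter on low counts, a filter that asks for 10 counts in each library, each mouse left out, and other scales for levels. The fit was tested on simulated data with 200 changed genes. R 4.3.3 ran the fits, and Python 3.11.15 with pandas 2.3.3, numpy 2.4.6 and matplotlib 3.10.9 the summaries and plots. Promoter windows came from RefSeq, and exons and transcript lengths from GENCODE M21, matched by Entrez identifier. The deposited counts were made on RefSeq Curated models, so exon bases from GENCODE M21 are those of another annotation.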

Additional observations from a re-analysis of the deposited data

Results flagged for a closer look

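In 10 groups of 5 libraries, the 5 genes with each treatment, 0 held a library that stood apart by Dixon's criterion, a gap to the nearest value above 0.71 of the group's range. Sult1e1 with vehicle had 0 counts in all its libraries, so no library of that group could stand apart.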

How the results depend on the processing

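Lhcgr and Gramd1b kept their direction and their call in every alternative run, with adjusted p up to 0.000459 and 0.00166. Ren1 kept its direction and lost its call in 1, without mouse M4 (adjusted p = 0.0661 by edgeR). With each mouse left out in turn, log2 fold changes were 2.35 to 3.02 for Lhcgr, 0.99 to 1.31 for Gramd1b and 0.72 to 1.27 for Ren1, and the tested members called higher were 2 to 3. The cause was not tested. The mean log2 ratio over mice was 0.40 for Insl3, and without mouse M4 it was -0.053 (range -0.053 to 0.79). Without the replicate block that pairs the gonads of a mouse, 1498 genes were called higher and 1610 lower, against 1544 and 1654 with it, and Lhcgr, Gramd1b and Ren1 kept their calls.

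With total counts alone, 1238 genes were called higher and 1972 lower. With mice left out, 969 to 1430 genes were called higher, and fewer mice were in the fit. The ranges were 1 to 4 for progenitor genes called lower, 1 to 2 for renin-angiotensin genes called lower, 1 to 2 for LH receptor signalling genes called lower, 0 to 1 for relaxin family genes called higher and 0 to 1 for estrogen genes called lower. With at least 10 counts in every library, 1 renin-angiotensin gene was called higher and 1 lower, since Agt and Ace were not tested. Among genes named in the report, log2 fold changes near 0 that turned were those of Gnas (0.0004 with limma-voom and 0.0006 without the replicate block) and Creb1 (-0.021 with total counts alone). With a mouse left out, the values of named genes that turned had ranges of -0.27 to 0.0235 for Thbs2, -0.049 to 0.024 for Gnas, -0.018 to 0.068 for Creb1, -0.21 to 0.056 for Gramd1a, -0.21 to 0.10 for Gramd1c, -0.20 to 0.15 for Stard3, -0.88 to 0.30 for Agtr2, -0.20 to 0.0885 for Papss2, -0.12 to 0.29 for Amh and -0.18 to 0.67 for Akr1b7. Insl3 and Sult1e1 had 7 counts or fewer in every library.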
